A study of Mus musculus with 16 samples.

Results

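Synaptic vesicle and synapse scaffold genes were followed in spinal cord RNA after spinal cord injury (SCI). The set was a list of 33 gene symbols, taken by name from the 24411 symbols in the deposited data. No measured change entered the rule, but earlier results of these data were known when the list was chosen. It held 24 presynaptic genes, which act in the nerve terminal, and 9 postsynaptic genes, which build the receiving side. All 33 had counts in every mouse and passed the filter on low expression, so that each one was tested.

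The study asked how a crushed spinal cord, and statin treatment begun late after the crush, differ from intact cord in gene expression. Female C57BL/6J mice of 12 wk received a lateral compression to a gap of 0.25 mm at the thoracic level. From 2 wk later, 7 of them were given atorvastatin, a cholesterol-lowering drug, at 10 mg/kg each day for 4 wk (SCI + Atorvastatin), and 7 were given its carrier of DMSO, polyethylene glycol, Tween 80 and saline alone (SCI + Vehicle). At 6 wk after injury, mice were perfused with saline and RNA was taken from 5 mm of cord around the injury, and 2 mice without injury formed the Uninjured Control group. The labels give the Uninjured Control mice an age of 12 wk, while the study's methods give a slightly greater age and a slightly later harvest of injured mice. By either source the injured mice were older, so injury, carrier and age cannot be told apart against them. All mice were of 1 sex and strain, and each library came from 1 mouse.

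At a chemical synapse, neurotransmitter is stored in vesicles that dock at the active zone, a protein scaffold on the presynaptic membrane. Calcium entry triggers fusion, which is carried out by SNARE proteins on the vesicle and plasma membranes, timed by complexins and sensed by synaptotagmins. Across the cleft, neuroligins bind neurexins and are anchored by scaffold proteins, Dlg4, Shank and Homer proteins at excitatory synapses and gephyrin at inhibitory ones. The mRNAs are made mainly by neurons, and much of the synaptic protein in the cord belongs to axons whose cell bodies lie elsewhere, so mRNA in a section reports on local cell bodies. In bulk tissue, fewer cells of a type and less RNA per cell cannot be told apart.

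Libraries held 14823292 to 25579826 counts on genes, and single synaptic genes held 119 to 58495 counts. Both Uninjured Control libraries stood apart from the rest. They had counts in 12732 and 12356 genes, against 16399 to 19338 in the SCI mice, and 13.9% and 17.6% of 3245 genes that averaged 200 to 500 counts in SCI mice were at 0 in them, against at most 0.247% in any SCI mouse. They also carried RNA of liver marker genes, at summed levels of 3913 and 614 normalized counts per 1000000 (CPM) against at most 5.18 in SCI mice. Their part in the results was not tested, and every comparison with them rests on these 2 libraries. Values of both are therefore given separately, and results are given without each of them where that changed a call.

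Many synaptic genes were lower in the injured cord, on both sides of the synapse, and none was called higher. With vehicle, 12 of the 33 were called lower and 0 higher than in the Uninjured Control mice, at a change above 25% and an adjusted p below 0.05 by edgeR, while 9.91% of all 16091 genes tested were called lower and 19.9% higher. Presynaptic genes made up 8 of the 12 (Snap25, Vamp1, Vamp2, Cplx1, Cplx2, Syp, Syn2 and Rab3a) and postsynaptic genes 4 (Nlgn1, Nlgn2, Dlg4 and Shank1). The median log2 fold change was -0.41 over the 24 presynaptic genes and -0.47 over the 9 postsynaptic ones, against 0.17 over all genes tested. Fold changes from edgeR lay below 0 for 29 of the 33, compared with 41.7% of all genes. Vamp2, Cplx2, Syp, Nlgn2 and Dlg4 lost their calls without control replicate 1, and Nlgn1 and Shank1 without control replicate 2. Voom with a weight for each group is a limma fit in which the 2 controls carry their own spread. It called 0 of the 33 lower, and 116 of all genes. Limma on log2(TPM + 1) called 5 of the 33 lower, and 689 of all genes. In that fit, 7 uncalled genes of the 33 had the other sign than in edgeR.

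**Figure D1:**
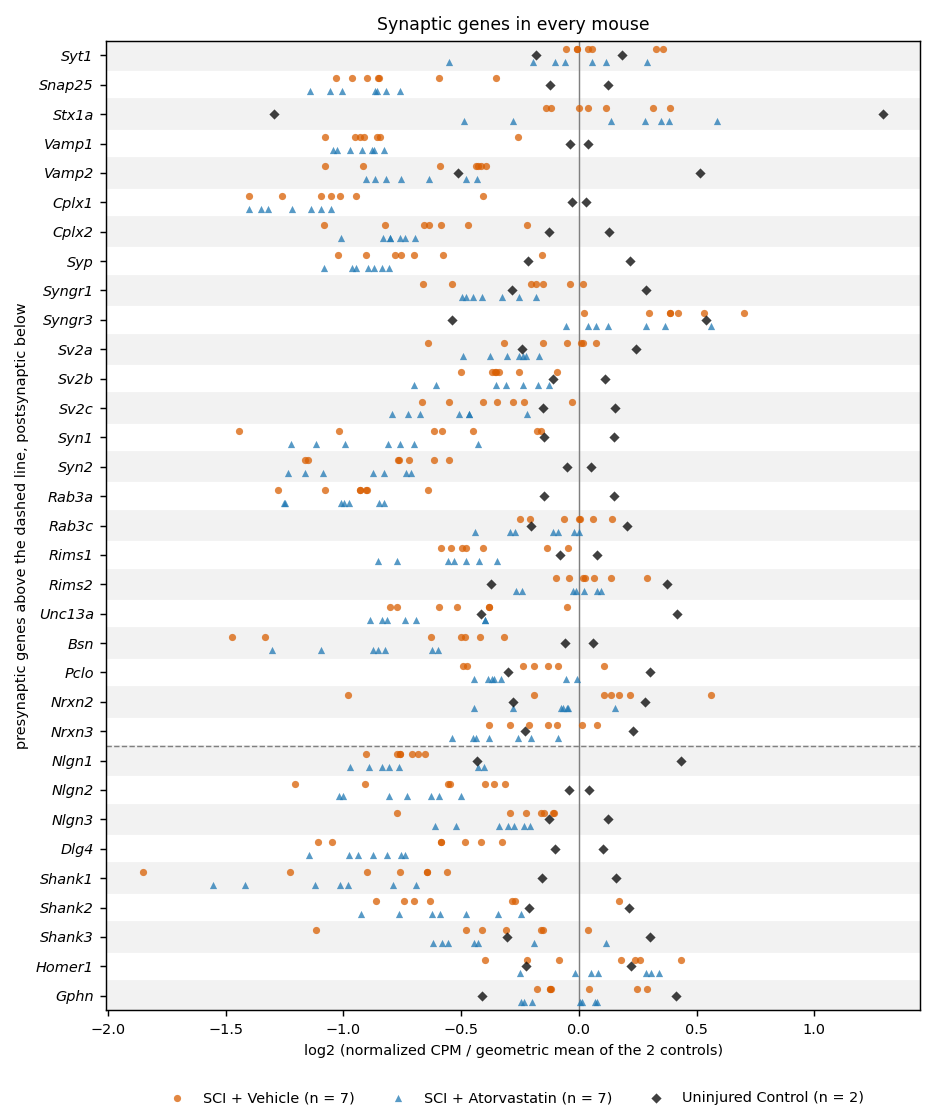
Normalized CPM of the 33 synaptic genes in every mouse, as log2 of the ratio to the geometric mean of the 2 Uninjured Control mice. Each row is a gene, circles are SCI + Vehicle mice, triangles SCI + Atorvastatin mice and diamonds the controls. For 11 genes all 14 SCI mice lie left of both controls, and for Stx1a the controls lie far apart on either side of the SCI mice.

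Of the 4 SNARE genes, 3 were called lower with vehicle, of which Vamp2 kept its call in few of the fits that left out a mouse, and Stx1a was not called. Snap25, on chromosome 2 of GRCm38 from 136713453 to 136782428, encodes the plasma membrane SNARE and had the highest level per transcript length of all 33 genes. Its normalized CPM was 2229 and 2650 in the controls, 1190 to 1903 (median 1346) in SCI + Vehicle mice and 1100 to 1434 (median 1333) in SCI + Atorvastatin mice. All 14 SCI mice lay below both controls. The level was 1.73-fold lower with vehicle (log2 fold change -0.79, standard error (SE) 0.16, edgeR adjusted p = 0.00439).

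Vamp1 and Vamp2 encode synaptobrevins, the SNAREs of the vesicle membrane. Vamp1 had 766 and 725.5 CPM in the controls, 352.996 to 624 (median 396) with vehicle and 361 to 420.5 (median 394) with atorvastatin. Every SCI mouse was below both controls, with a log2 fold change of -0.82 (SE 0.17, edgeR adjusted p = 0.00475) with vehicle. Vamp2 had 375 CPM in 1 control and 184 in the other, against 124 to 199.6 (median 194) with vehicle and 140.2 to 194 (median 155) with atorvastatin. Only 3 SCI + Vehicle mice and 5 SCI + Atorvastatin mice were below both controls. Its adjusted p with vehicle was 0.0476 from edgeR at a log2 fold change of -0.69, which became -0.09 without control replicate 1, and the call was kept in 1 of the 9 fits that left out a mouse.

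Stx1a, the syntaxin that pairs with Snap25, could not be placed against the controls. It had 5.97 CPM in control replicate 1 and 35.9 in control replicate 2, with all 14 SCI mice between them at 13.3 to 19.2 (median 15.05) with vehicle and 10.4 to 22 (median 17.8) with atorvastatin. The log2 fold change with vehicle was -0.44 (edgeR adjusted p = 0.547), and it was called at 1.38 without control replicate 2 and at -1.21 without control replicate 1. The deposited TPM of Stx1a in control replicate 1 is listed at 0 although that library held 119 counts of it.

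Both complexin genes fell. Complexins clamp and promote the SNARE complex before fusion. Cplx1, on chromosome 5 from 108518554 to 108550024, had 1651 and 1587 CPM in the controls, 612 to 1222 (median 781) with vehicle and 613 to 781 (median 695.5) with atorvastatin. No SCI mouse reached either control, and the level was 2.01-fold lower with vehicle (log2 fold change -1.01, SE 0.19, edgeR adjusted p = 0.00283). Cplx2 had 351.2 and 295 CPM in the controls, 152 to 276 (median 207) with vehicle and 159.6 to 199 (median 184.5) with atorvastatin. Its groups did not overlap either, at a log2 fold change of -0.64 with vehicle (edgeR adjusted p = 0.0166).

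Syt1, the calcium sensor of fast release, was not called. It had 124 and 159.6 CPM in the controls, 135 to 179.8 (median 144) with vehicle and 95.7 to 171 (median 135) with atorvastatin. The groups overlapped, and the log2 fold change with vehicle was 0.08 with a 95% interval of -0.24 to 0.41 (edgeR adjusted p = 0.717).

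Of the 6 genes of vesicle membrane proteins, only Syp was called with vehicle by edgeR. Syp encodes synaptophysin, the abundant tetraspan protein used to stain terminals. Its CPM was 929 and 689.5 in the controls, 393 to 718 (median 474) with vehicle and 378 to 458 (median 429.9) with atorvastatin. SCI + Vehicle replicate 7, at 718, was above the lower control and the other 13 SCI mice were below both. The log2 fold change was -0.71 (SE 0.18, edgeR adjusted p = 0.0160), and the call was lost without control replicate 1 at -0.47. The genes of the transporter-like SV2 proteins, Sv2a, Sv2b and Sv2c, had log2 fold changes of -0.17, -0.34 and -0.37 with vehicle, none of which was called by edgeR, whereas DESeq2 called Sv2b and Sv2c lower. In edgeR, Sv2b was called without control replicate 1, at -0.44 with either treatment, Sv2c with vehicle without control replicate 2, at -0.52, and Sv2a with atorvastatin without control replicate 2, at -0.53.

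Synaptogyrins are relatives of synaptophysin, and their 2 genes here pointed in different directions without a call. Syngr1 had a log2 fold change of -0.27 with vehicle and Syngr3 of 0.30 (edgeR adjusted p = 0.293 and 0.455). Syngr3 had 36.15 and 17.1 CPM in the controls, 25.25 to 40.4 (median 32.5) with vehicle and 23.9 to 36.6 (median 27.0) with atorvastatin. Of the 14 SCI mice, 12 lay between the controls and 1 of each treatment lay above both, and Syngr3 was called higher, at 0.93 with vehicle and 0.76 with atorvastatin, when control replicate 1 was left out. Syngr1 was called lower with atorvastatin, at -0.65, when control replicate 2 was left out.

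Synapsins tether vesicles to each other and to actin in the reserve pool. Syn2 had 234 and 218 CPM in the controls, 100.7 to 154 (median 133) with vehicle and 95.9 to 138 (median 123) with atorvastatin. All SCI mice were below both controls, at a log2 fold change of -0.82 with vehicle (SE 0.15, edgeR adjusted p = 0.00276). Syn1 also showed no overlap, at -0.60, but missed the threshold with vehicle (edgeR adjusted p = 0.110), and its spread among SCI + Vehicle mice was the widest of the 33 genes, with a coefficient of variation of 28.7%.

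Rab3a, on chromosome 8 from 70754679 to 70758677, gave the smallest p of the 33 genes with vehicle, and its paralog Rab3c was not called. Rab3 proteins are small GTPases that bring vesicles to the active zone. Rab3a had 630.3 and 514 CPM in the controls, 234 to 365 (median 299) with vehicle and 239 to 320.5 (median 285) with atorvastatin. No SCI mouse came near either control, and the level was 1.95-fold lower with vehicle (log2 fold change -0.96, SE 0.14, edgeR adjusted p = 0.000631). Rab3c had 204 and 271 CPM in the controls and 174 to 259.9 in SCI mice, with a log2 fold change of -0.07 and a 95% interval of -0.36 to 0.22 with vehicle. The intervals of the 2 genes did not overlap, that of Rab3a being -1.26 to -0.66. With atorvastatin, Rab3c was called, at -0.36, when control replicate 1 was left out.

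The promoters of 6 presynaptic genes are shown to set 4 genes that fell with vehicle (Rab3a, Cplx1, Syp and Vamp1) beside 2 with fold changes near 0 (Rab3c and Syt1). Each line is the 250 bases before the first RefSeq start listed for the gene on GRCm38.p6, written 5′ to 3′ along the gene's strand. Capitals mark GGGCGG, the GC box, and TGACG, the core of the cAMP response element, or their reverse complements CCGCCC and CGTCA, and TATAAA was searched for as well.
Rab3a, chr8:70754453-70754702, plus strand: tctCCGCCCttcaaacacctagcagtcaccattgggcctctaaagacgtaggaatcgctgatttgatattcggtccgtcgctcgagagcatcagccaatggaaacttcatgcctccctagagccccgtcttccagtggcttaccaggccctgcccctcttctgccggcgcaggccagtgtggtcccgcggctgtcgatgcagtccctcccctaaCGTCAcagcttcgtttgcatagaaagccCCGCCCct
Cplx1, chr5:108550028-108550277, minus strand: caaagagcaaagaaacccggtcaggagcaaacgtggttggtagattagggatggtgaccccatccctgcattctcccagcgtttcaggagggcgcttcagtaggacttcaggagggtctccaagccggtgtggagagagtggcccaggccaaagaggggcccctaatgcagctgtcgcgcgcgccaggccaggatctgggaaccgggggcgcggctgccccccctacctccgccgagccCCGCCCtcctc
Syp, chrX:7638330-7638579, plus strand: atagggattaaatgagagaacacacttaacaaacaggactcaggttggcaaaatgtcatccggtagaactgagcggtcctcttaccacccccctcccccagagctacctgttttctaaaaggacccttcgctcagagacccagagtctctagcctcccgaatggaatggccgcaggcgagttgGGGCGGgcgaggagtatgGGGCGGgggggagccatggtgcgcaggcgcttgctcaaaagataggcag
Vamp1, chr6:125215331-125215580, plus strand: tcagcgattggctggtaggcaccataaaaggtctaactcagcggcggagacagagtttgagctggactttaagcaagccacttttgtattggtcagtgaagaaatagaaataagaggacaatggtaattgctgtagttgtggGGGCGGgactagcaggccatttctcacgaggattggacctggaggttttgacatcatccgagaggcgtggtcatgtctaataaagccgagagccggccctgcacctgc
Rab3c, chr13:110280207-110280456, minus strand: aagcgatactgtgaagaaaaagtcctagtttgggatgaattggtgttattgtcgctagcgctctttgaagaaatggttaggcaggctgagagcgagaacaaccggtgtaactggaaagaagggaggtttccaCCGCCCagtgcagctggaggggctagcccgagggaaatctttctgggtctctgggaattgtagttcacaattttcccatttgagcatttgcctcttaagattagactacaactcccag
Syt1, chr10:109010976-109011225, minus strand: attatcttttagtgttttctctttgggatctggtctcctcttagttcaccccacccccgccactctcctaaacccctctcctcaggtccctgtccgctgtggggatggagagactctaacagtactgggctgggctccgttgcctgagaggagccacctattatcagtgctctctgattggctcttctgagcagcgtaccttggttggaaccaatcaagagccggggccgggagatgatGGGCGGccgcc
The GC box occurred in these 250 bases in both kinds of gene, 2 times each for Rab3a and Syp and 1 time for each of the other 4, and TGACG was found for Rab3a, while TATAAA was found in none of the 6. The motifs did not overlap one another here. RefSeq promoters were at hand for 25 of the 33 genes, 37 promoters in all since 8 genes have several, each of 300 bases with 50 after the start. GGGCGG on either strand was in 54.1% of them and in 35.7% of all 32851 promoters in the table, TGACG in 21.6% and 20.8%, and TATAAA in 5.4% and 13.6%. The median GC content was 60.0% against 52.7%. These are matches of letters, not sites, and nothing was tested on them.

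None of the 5 active zone genes was called with vehicle by edgeR, whereas DESeq2 called Bsn, Rims1 and Unc13a lower. These are Bsn and Pclo, which encode the giant scaffolds bassoon and piccolo, Rims1 and Rims2, which link vesicles to calcium channels, and Unc13a, which primes vesicles. Their log2 fold changes with vehicle were -0.70 for Bsn, -0.56 for Unc13a, -0.39 for Rims1, -0.25 for Pclo and -0.00 for Rims2, with the smallest edgeR adjusted p at 0.0651 from edgeR (Bsn). All SCI mice were below both controls for Bsn, which had 467 and 506 CPM in the controls and 175 to 389.5 in SCI mice. Without control replicate 1, edgeR called Unc13a at -0.91 and Pclo at -0.52 with vehicle, and Rims2 at -0.41 and Pclo at -0.56 with atorvastatin.

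Neither gene of the neurexins, the presynaptic partners of neuroligins, was called. Nrxn2 had 342.9 and 232 CPM in the controls, 143 to 416 (median 310.1) with vehicle and 207 to 313.5 (median 269) with atorvastatin. Nrxn3 had 196 and 269.5 CPM in the controls, 177 to 243 (median 209.8) with vehicle and 158 to 216 (median 176) with atorvastatin. Groups overlapped for both, and their log2 fold changes with vehicle were 0.02 and -0.17. With atorvastatin, Nrxn2 was called at -0.39 without control replicate 2, and Nrxn3 at -0.55 without control replicate 1.

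On the postsynaptic side, 2 of 3 neuroligin genes fell. Nlgn1, which encodes the neuroligin of excitatory synapses, had 57.9 and 105 CPM in the controls, 41.7 to 49.6 (median 46.2) with vehicle and 39.8 to 59.0 (median 44.6) with atorvastatin. All SCI + Vehicle mice and 5 SCI + Atorvastatin mice were below both controls. The log2 fold change with vehicle was -0.83 (SE 0.19, edgeR adjusted p = 0.00874), and it was -0.33 and not called without control replicate 2. Nlgn2, the neuroligin of inhibitory synapses, had 244.5 and 231 CPM in the controls, 103 to 191 (median 162) with vehicle and 117 to 168 (median 143) with atorvastatin. Groups did not overlap, but at a log2 fold change of -0.60 the adjusted p was 0.0364 from edgeR and the call was lost when SCI + Vehicle replicate 2, 3 or 6 or control replicate 1 was left out. Nlgn3 was at -0.27 without a call, and with atorvastatin it was called at -0.46 when control replicate 1 was left out.

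Among the scaffold genes of excitatory synapses, Dlg4 and Shank1 fell and Shank2, Shank3 and Homer1 were not called with vehicle. Dlg4 encodes PSD-95, the main scaffold of the postsynaptic density. Its CPM was 424 and 368 in the controls, 183 to 314 (median 263) with vehicle and 179 to 237 (median 215) with atorvastatin. Shank1, on chromosome 7 from 44310253 to 44360572, encodes a master scaffold beneath PSD-95 and had 650.2 and 808.5 CPM in the controls, 201 to 491 (median 428) with vehicle and 246.5 to 448 (median 359) with atorvastatin. For both genes every SCI mouse was below both controls. Dlg4 lost its call with vehicle without SCI + Vehicle replicate 3. With vehicle, the log2 fold change was -0.64 for Dlg4 (SE 0.18, edgeR adjusted p = 0.0224) and -0.91 for Shank1 (SE 0.25, edgeR adjusted p = 0.01995).

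Homer1 and Gphn were not called, and their intervals were wide. Homer1 encodes the adaptor that joins Shank to glutamate receptors and had 28.2 and 38.4 CPM in the controls, 24.9 to 44.4 (median 37.2) with vehicle and 27.7 to 41.6 (median 34.75) with atorvastatin. Gphn encodes gephyrin, which anchors glycine and GABA receptors, and had 54.4 and 96.4 CPM in the controls with all SCI mice between them. Their log2 fold changes with vehicle were 0.05 (95% interval -0.49 to 0.59) and -0.06 (95% interval -0.53 to 0.42). With atorvastatin and without control replicate 1, Gphn was called at -0.47 and Shank3 at -0.66.

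With atorvastatin, more of the 33 genes were called. In SCI + Atorvastatin vs. Uninjured Control, 18 of the 33 genes were called lower and 0 higher, against 14% and 24.9% of all genes tested, 13 of them presynaptic and 5 postsynaptic. All 12 genes called with vehicle were called, and 6 more were called here alone, namely Sv2c, Syn1, Rims1, Unc13a, Bsn and Shank2. Both comparisons share the 2 controls, so they are not independent of each other. The median log2 fold change was -0.54 for presynaptic and -0.56 for postsynaptic genes, with 0.21 over all genes. Voom with a weight for each group called 1 of the 33, Cplx1, and limma on log2(TPM + 1) called 11. Of all genes they called 127 and 1238 lower.

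Set side by side, the values against the controls were close in size. As log2 fold changes, vehicle first, they were -1.01 and -1.21 for Cplx1, for Shank1 -0.91 and -1.05, for Rab3a -0.96 and -1.01, and for Snap25 -0.79 and -0.92. Of the genes called with atorvastatin alone, Bsn was at -0.70 and -0.86, Syn1 at -0.60 and -0.84, Unc13a at -0.56 and -0.72, Rims1 at -0.39 and -0.55, Sv2c at -0.37 and -0.54 and Shank2 at -0.47 and -0.56. Their standard errors with atorvastatin were 0.13 to 0.20 and with vehicle 0.15 to 0.26. The call of Shank2 was lost without SCI + Atorvastatin replicates 3, 4, 5 or 7 and without control replicate 2, and those of Unc13a and Nlgn1 without control replicate 2. Vamp2 and Sv2c lost theirs without control replicate 1.

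**Figure D2:**
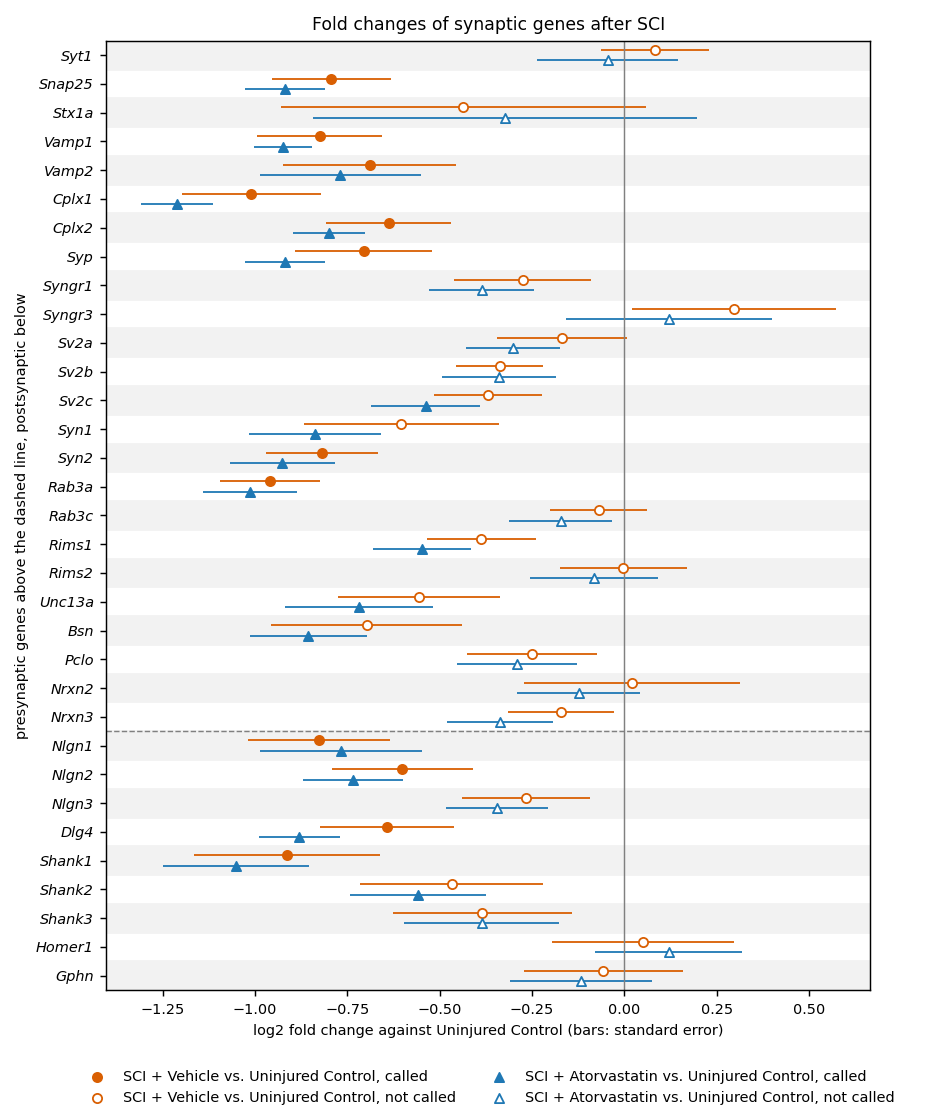
Log2 fold changes of the 33 synaptic genes against the Uninjured Control group, with vehicle (circles) and atorvastatin (triangles), and bars of 1 standard error. Filled symbols were called by edgeR at a change above 25% and an adjusted p below 0.05, which holds for 12 genes with vehicle and 18 with atorvastatin, all of them left of 0.

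All mice of a group lay below both controls for 12 of the 33 genes with vehicle, where 10.7% of all genes did so, and for 17 with atorvastatin, where 14.2% did. Over all 14 SCI mice together this held for 11 genes (9.89% of all genes), which were Snap25, Vamp1, Cplx1, Cplx2, Syn1, Syn2, Rab3a, Bsn, Nlgn2, Dlg4 and Shank1. No synaptic gene had all mice of an SCI group above both controls, which held for 24.8% of all genes with vehicle, 29.8% with atorvastatin and 22.8% over all SCI mice. The 2 controls differed from each other by more than 2 times for Stx1a, Syngr3 and Vamp2, and by more than 1.5 times for 9 genes.

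No synaptic gene was called between the treatments. In SCI + Atorvastatin vs. SCI + Vehicle, 0 of the 33 genes were called at a change above 25% and an unadjusted p below 0.001 by edgeR, where 0.0186% of all genes were called lower and 0.087% higher, and DESeq2 called 0 of the 33 as well. The smallest adjusted p was 0.681. Fold changes lay below 0 for 30 of the 33 genes, against 50.3% of all genes, with a median log2 fold change of -0.15 against -0.00 over all genes. An unadjusted p below 0.05 was reached by 3 genes, all lower with atorvastatin, as it was by 3.01% of all genes in that direction. These were Dlg4 (log2 fold change -0.26, 95% interval -0.49 to -0.04, edgeR adjusted p = 0.681), Syp (-0.24, -0.44 to -0.03, edgeR adjusted p = 0.690) and Nrxn3 (-0.19, -0.36 to -0.02, edgeR adjusted p = 0.693). Cplx1 followed at -0.23 (edgeR adjusted p = 0.722). The widest interval bounds over the 33 genes were -0.59 for Syn1 and 0.42 for Stx1a, so differences up to those sizes were not excluded for those genes.

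**Figure D3:**
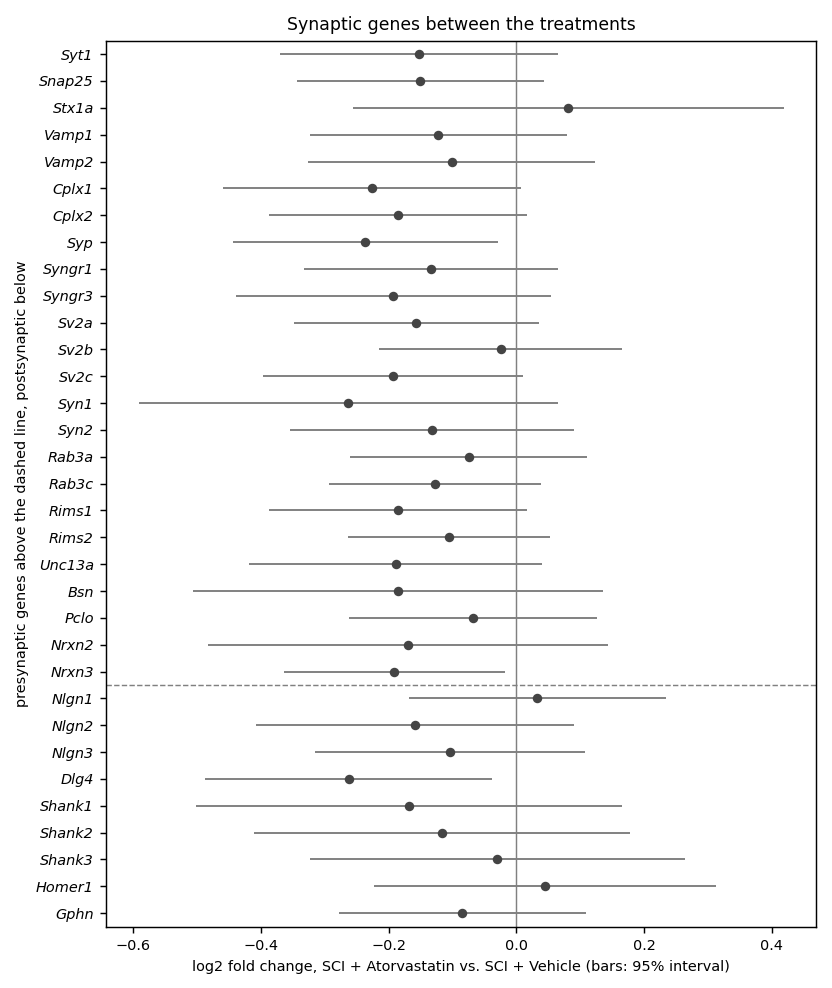
Log2 fold changes of the 33 synaptic genes in SCI + Atorvastatin vs. SCI + Vehicle mice (7 in each group), with bars for the 95% interval from edgeR. Points of 30 genes lie left of 0, and the intervals of all genes but Dlg4, Syp and Nrxn3 include 0.

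Marker levels of other cell types were set beside these values. Fibroblast marker genes (Col1a1, Col1a2, Col3a1, Dcn and Lum) summed to 127 to 1054 CPM (median 587) with vehicle and to 612 to 1850 (median 1069) with atorvastatin, and 0 of the 5 were called between the treatments while all 5 had an unadjusted p below 0.05, higher with atorvastatin. Microglia or macrophage markers summed to 1595 to 2042 and to 1682 to 2665 CPM. Of 5 Schwann cell markers, 4 had fold changes above 0 and 1 below, with 0 called and a median of 0.95. All 8 neuronal markers had fold changes below 0, with 0 called and a median of -0.15, as over the 33 synaptic genes. The part of these cells in the 30 fold changes below 0 was not tested.

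Within single mice, many synaptic genes lay on the same side of their group. No share over all genes was computed for the counts below. SCI + Vehicle replicate 7 had the highest level of its group for 18 of the 33 genes and lay above the mean of the other 6 for 32. It was unlike its group in other ways too. Among SCI mice it had the fewest genes with counts (16399). Its fibroblast (127 CPM) and Schwann cell (39.03 CPM) marker sums were the lowest of all mice. Its oligodendrocyte marker sum (18800 CPM) was the highest of its group. SCI + Vehicle replicates 1 and 2 had the lowest level of their group for 14 and 12 genes. Among SCI + Atorvastatin mice, replicate 1 was highest for 19 genes, and replicates 2 and 7 were lowest for 13 each. The coefficient of variation over the mice of a group had a median of 16.6% with vehicle and 12.9% with atorvastatin and was larger with vehicle for 26 of the 33 genes.

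Base composition varied with some of these deviations. In SCI + Vehicle replicate 1 genes rich in GC tended to lie low, with a Spearman correlation of -0.53 between GC content of the longest coding transcript and the deviation from the other mice of the group over the 33 genes, and Nrxn2, at 62.4% GC, was 1.15 below the others on the log2 scale in this mouse. In SCI + Vehicle replicate 5 and SCI + Atorvastatin replicate 7 the correlation was 0.54 and 0.55, and in SCI + Atorvastatin replicate 4 it was -0.58. Against the controls, GC content and log2 fold change correlated at -0.20 with vehicle and -0.24 with atorvastatin. These correlations describe genes that share libraries, and their part in the fold changes was not tested.

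Levels per transcript length (TPM) put Snap25 first, at 1675 ± 224.5 (SD, n = 7) with vehicle, followed by Cplx1 at 955 ± 204.5 and Rab3a at 576 ± 68.4. Syp (560.2 ± 102) and Rab3a changed order between mice. The lowest 3 genes were Shank2 (20.2 ± 6.04), Homer1 (16.6 ± 2.72) and Stx1a (14.8 ± 4.78), which also changed order between mice. Dlg4, at 172.8 ± 35.8 TPM, was the highest of the postsynaptic genes, with Shank1 next at 116.1 ± 33.95 and below Dlg4 in every mouse.

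The ratio of 2 genes in the same library does not depend on the scaling between libraries. Of 9 paralog pairs compared in this way, 5 had all 14 SCI mice below both controls and 4 overlapped. No share over other pairs of genes was computed, so these counts cannot be set against other genes. Of single genes, 9.89% were lower and 22.8% higher in every SCI mouse than in both controls. The direction of a ratio depends on which gene is put first, and the pairs with Shank2 and Shank3 share Shank1. Rab3a had 576 ± 68.4 TPM and Rab3c 64.7 ± 6.52 with vehicle (SD, n = 7), against 945 and 878.7 for Rab3a and 49.0 and 72.6 for Rab3c in the controls. Counts of Rab3a were 3.08 and 1.89 times those of Rab3c in the controls and 1.15 to 1.54 times in SCI mice. Every SCI mouse was below both controls in this ratio.

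The other 4 paralog pairs without overlap were Cplx1 to Cplx2, Shank1 to Shank2 and to Shank3, and Syngr1 to Syngr3. Counts of Cplx1 were 4.70 and 5.39 times those of Cplx2 in the controls and 3.20 to 4.45 times in SCI mice. Shank1 to Shank2 went from 9.52 and 8.82 to 4.26 to 8.38, Shank1 to Shank3 from 6.76 and 5.52 to 3.05 to 4.80, and Syngr1 to Syngr3 from 6.39 and 9.10 to 3.68 to 5.95. Snap25 to Syt1, no paralogs and a pair chosen after its values were seen, went from 18.03 and 16.6 to 7.49 to 11.5. Ratios of Vamp1 to Vamp2, Syn1 to Syn2, Rims1 to Rims2 and Nlgn2 to Nlgn1, and of Dlg4 to Gphn and to Homer1, overlapped between SCI mice and controls. Vamp1 was the more abundant of the vesicle SNAREs at 429 ± 71.2 TPM against 197.6 ± 37.3 for Vamp2 with vehicle. SV2 genes ranked Sv2a (171.9 ± 30.5), Sv2c (124 ± 18.8) and Sv2b (53.8 ± 5.63), and neuroligins Nlgn2 (73.7 ± 16.4), Nlgn3 (36.6 ± 6.11) and Nlgn1 (21.1 ± 1.56) in TPM with vehicle.

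**Figure D4:**
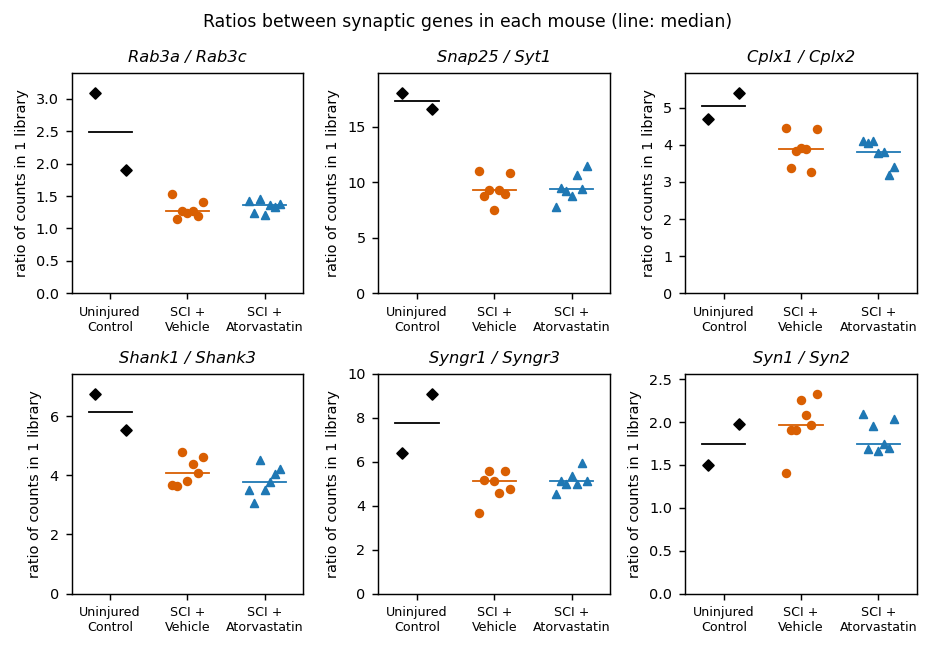
Ratio of the counts of 2 synaptic genes in the same library, for 6 pairs, with 1 point per mouse and a line at the group median. SCI mice of both treatments lie below both controls in all pairs but Syn1 to Syn2, for example at 1.15 to 1.54 against 3.08 and 1.89 for Rab3a to Rab3c.

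Among further presynaptic genes, falls also outnumbered rises. Of 42 other presynaptic genes, 41 were tested, of which 14 were called lower and 2 higher with vehicle, against 9.91% and 19.9% of all genes. With atorvastatin 22 were called lower and 2 higher, against 14% and 24.9%. The medians were -0.39 and -0.48, against 0.17 and 0.21 over all genes. Among those lower with the smallest p were Sh3gl2, an endophilin of vesicle recycling (log2 fold change -0.89, edgeR adjusted p = 0.000997), and Sncb, beta-synuclein (-1.05, edgeR adjusted p = 0.00502). The 2 that rose were Unc13b, a relative of Unc13a (1.29, edgeR adjusted p = 0.0101), and Rab3d (3.91, edgeR adjusted p = 0.0294), a Rab3 gene known from secretory cells outside the nervous system. Rab3d had 0 and 1.54 CPM in the controls and 5.81 to 17.05 in SCI mice.

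Of 32 further postsynaptic genes tested, 4 were called lower and 5 higher with vehicle, shares near the 9.91% and 19.9% of all genes. With atorvastatin 9 were called lower and 5 higher, against 14% and 24.9%. The medians were -0.18 and -0.28, against 0.17 and 0.21. Slitrk1, an adhesion protein, was at -0.89 (edgeR adjusted p = 0.00265), Lin7b, a PDZ scaffold, at -1.77 (edgeR adjusted p = 0.0208), and Iqsec3, a gephyrin partner, at -0.68 (edgeR adjusted p = 0.0315). Those that rose with the smallest p were Dlg1, encoding SAP97, at 0.71 (edgeR adjusted p = 0.000589), Baiap2, encoding IRSp53, at 1.099 (edgeR adjusted p = 0.0189), and Slitrk3 at 0.99 (edgeR adjusted p = 0.0324). Dlg1, a paralog of Dlg4, is also made by cells other than neurons.

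Some neuronal markers moved with the synaptic genes. Of 8 neuronal marker genes, 4 were called lower with vehicle (Rbfox3, Tubb3, Stmn2 and Eno2) and 1 higher (Snhg11, a long noncoding RNA), and with atorvastatin 6 and 1. Of all genes, 9.91% were called lower and 19.9% higher with vehicle, and 14% and 24.9% with atorvastatin. The 8 summed to 3217 and 3173 CPM in the controls, 2624 to 3523 with vehicle and 2279 to 2972 with atorvastatin, and the groups overlapped with vehicle. Without Snhg11, which was set aside after its values were seen, the other 7 summed to 3026 and 2919 CPM in the controls, 1828 to 2812 (median 2105) with vehicle and 1730 to 2017 (median 1974) with atorvastatin. For this reduced list all 14 SCI mice were below both controls. The 33 synaptic genes divided by these 7 markers gave 4.16 and 4.44 in the controls. The ratio was 3.64 to 4.40 (median 3.81) with vehicle and 3.71 to 4.22 (median 3.92) with atorvastatin, and 11 of 14 SCI mice were below both controls. Snhg11, left out here, was the 1 marker of the 8 that rose (log2 fold change 1.81 with vehicle and 1.69 with atorvastatin). The ratio to all 8 markers was not computed.

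Among genes that set the transmitter of a neuron, several fell as well. Of 8, 4 were called lower with vehicle and 6 with atorvastatin, against 9.91% and 14% of all genes. Slc17a7, Slc6a5, Gad1 and Chat were not called with vehicle. Slc32a1, the vesicular transporter of GABA and glycine, had a log2 fold change of -1.16 with vehicle (edgeR adjusted p = 0.00667) and -1.39 with atorvastatin (edgeR adjusted p = 3.98e-05). Slc17a6, a vesicular glutamate transporter, was at -0.52 with vehicle and -0.64 with atorvastatin. The group summed to 992.5 and 889 CPM in the controls, 474 to 758 with vehicle and 472 to 607 with atorvastatin.

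Markers of other cells also moved with injury. The shares of all genes called were 9.91% lower and 19.9% higher with vehicle, and 14% and 24.9% with atorvastatin. Of 8 microglia or macrophage markers, 7 were called higher in both comparisons, and their sum went from 175 and 227 CPM in the controls to 1595 to 2665 in SCI mice. Of 6 astrocyte markers 4 were called higher in both comparisons, and of 6 oligodendrocyte markers 1 was called lower with vehicle and 3 with atorvastatin. Schwann cell markers, 5 in all, summed to 473.7 and 285.3 CPM in the controls and 39.03 to 272.4 in SCI mice, without overlap. With vehicle 0 of these 5 were called lower and 1 higher, and with atorvastatin 2 lower and 1 higher. Of 6 dorsal root ganglion markers 3 were tested, of which 1 (Prph) was called lower in both comparisons and 0 higher. Prph, an intermediate filament gene of sensory and motor neurons, had 106 and 105 CPM in the controls and 35.03 to 69.8 in SCI mice, without overlap. The other 2 did not fall in this way. Calca had 31.03 and 6.34 CPM in the controls and 6.60 to 31.4 in SCI mice, and Scn10a 0 in both controls and 0 to 17.45. CPM are relative to the rest of a library, and the part of these cells in the lower synaptic levels was not tested. The 33 synaptic genes together made up 12580 and 12970 CPM in the controls, 6893 to 10610 (median 8273) with vehicle and 6674 to 8514 (median 7526) with atorvastatin, without overlap.

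**Figure D5:**
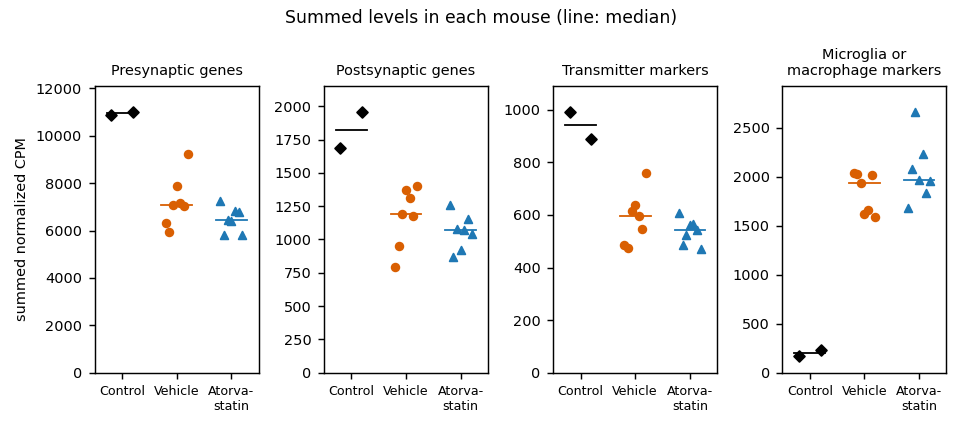
Summed normalized CPM of the 24 presynaptic genes, the 9 postsynaptic genes, 8 transmitter marker genes and 8 microglia or macrophage marker genes, with 1 point per mouse and a line at the group median. The first 3 sums are lower in all 14 SCI mice than in both controls, and the last is higher, at 1595 to 2665 against 175 and 227.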

How the data were processed

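Total RNA of 16 mouse spinal cord sections, 1 library per mouse, was sequenced from a stranded low-input kit. The authors deposited gene counts and TPM (transcripts per 1000000), per the labels made on mm10 with Trimmomatic 0.38, STAR 2.5.4b and RSEM 1.3.1 named in the submitters' processing notes. Counts were whole numbers, and the strand setting of the counting is not given in the sources used here.

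Genes with a mean TPM above 1 in any group were kept (16091), counts were scaled by TMM, and each pair of groups was fitted with edgeR 4.0.16 (quasi-likelihood, Benjamini-Hochberg adjustment over all genes tested, two-sided). A call against controls needed an adjusted p below 0.05 and a change above 25%, and between treatments an unadjusted p below 0.001 and the same change. Full values are given for genes called with vehicle, the 4 with the smallest p between treatments, those higher in an SCI group than in the controls and those with controls over 2 times apart, and paralogs are compared in TPM. From further genes, the 3 with the smallest p in each direction were named, except for 1 that is not reported here. Normalized CPM are counts per 1000000 on the TMM scale. Intervals are at 95% and use the total degrees of freedom of the quasi-likelihood test of each gene. DESeq2 1.42.0 and limma 3.58.1 served as alternatives. The fits were also run on simulated counts with the same spread for all mice, so that run cannot vouch for comparisons with the 2 controls. Libraries held 14823292 to 25579826 counts, and the part of depth in the precision was not tested. Nothing in the labels shows that mice shared a batch. The edgeR p-values measure a spread pooled over both groups of a comparison, to which 7 SCI mice add more than 2 controls. Counts of the 2 controls differed at a chi-square per degree of freedom of 205, against 17.7 to 80.6 for pairs of mice within an SCI group. The genes and lists were chosen with earlier results of these data known. Promoters came from RefSeq. Protein sequences were not analysed here.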

Additional observations from a re-analysis of the deposited data

Results flagged for a closer look

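In SCI + Vehicle mice, 3 values lay apart from the other 6 of their group by Dixon's test at 95%, which was run on 66 groups of 7 mice (33 genes in each SCI group) and sets apart about 1 in 20 groups by chance. Vamp1 was at 623.9 normalized CPM in SCI + Vehicle replicate 7, and Cplx1 at 1222 in the same mouse, where 32 of the 33 genes were above the mean of the other mice. Nlgn3 was at 39.26 in SCI + Vehicle replicate 1. Without SCI + Vehicle replicate 7, Vamp1 and Cplx1 were still called lower.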

How the results depend on the processing

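Of the 12 genes called lower with vehicle, limma on log2(TPM + 1) and on log2(TPM + 0.1) called 5 each and voom with group weights called 0. Of the 18 with atorvastatin they called 11, 11 and 1. Both limma fits on TPM moved the median log2 fold change of all genes, from 0.17 to 0.49 and 0.62 with vehicle and from 0.21 to 0.52 and 0.66 with atorvastatin, and called 689 and 687 of all genes lower and 3763 and 4234 higher with vehicle. DESeq2, its size factors in edgeR, library totals, 1 fit of all groups and other gene filters called 10 to 17 with vehicle and 18 to 22 with atorvastatin. Of all genes, they called 1115 to 2218 lower with vehicle and 1887 to 2565 with atorvastatin. Leaving out 1 mouse gave 9 to 14 genes lower with vehicle, 17 to 25 with atorvastatin and 0 between treatments. Of genes called higher it gave 0 to 1 in both comparisons, the 1 being Syngr3 without control replicate 1 and Stx1a without control replicate 2. Stx1a then reversed to 1.38 with vehicle and 1.47 with atorvastatin, and without control replicate 1 it was called at -1.21 and -1.101. Shank2 with atorvastatin reversed to 0.017 and 0.018 in the limma fits on TPM. Among synaptic genes not called by edgeR, 7 with vehicle and 6 with atorvastatin had the other sign in each of these fits. The direction of uncalled genes therefore depended on the processing. The cause was not tested.

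Replicate numbers are shared by the groups in the labels but did not pair the mice. Over 7 pairs, the correlation of deviations between same-numbered mice was -0.15 to 0.0871, and 0 mice correlated best with their own number. With the replicate number as a block, 0 of the 33 genes were called lower with vehicle and 0 with atorvastatin, and of all genes 4 were lower and 23 higher with vehicle and 0 and 0 with atorvastatin. Each such fit has pairs only for the 2 controls.

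Both comparisons with controls rest on 2 mice, whose libraries detected fewer genes and carried liver RNA. Depth did not leave any of the 33 genes without counts. Injury cannot be told apart from age.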
